A study of Mus musculus with 13 samples.

Results

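Mmp12 and Gpnmb lung macrophages were described here as 2559 cells, selected from 37344 cell barcodes of a single-cell RNA sequencing matrix of mouse lungs. A member cell came from library 1, 2, 3 or 7, held at most 10% mitochondrial transcripts and at least 5 unique molecular identifiers (UMIs, tags that count single captured transcripts) summed over 3 genes, among them Mmp12 and Gpnmb. It also held at least 1 UMI of Ctsk or Chil3 and none of Cdh5, Col1a1 or Cd79a, genes of endothelial cells, fibroblasts and B cells. Since these measured values chose the cells, the levels of the rule genes are given as a description only.

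The study compared eosinophils in mouse models of asthma and emphysema, and 4 of its 13 samples are titled as single-cell lung samples. The Asthma mouse was sensitised to and challenged with ovalbumin, and the PPE-emphysema mouse was given porcine pancreatic elastase into the trachea at weekly intervals. The Control mouse was instilled on the same schedule, and the PPE-recovery mouse was given a single instillation and a rest. Each group was 1 mouse by the study's own account, the methods name C57BL/6 mice and no genetic change for these 4, and the other 9 samples were not analysed here. The matrix names its libraries by number only, so no library is called by a condition below, no test was made, and each value stands for 1 library.

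Lung macrophages fall into resident alveolar macrophages of the airspace, interstitial macrophages of the tissue and cells newly formed from monocytes. Macrophage elastase (Mmp12) degrades elastin, the protein whose loss marks emphysema, Gpnmb is a membrane glycoprotein of lipid-laden and lysosome-rich macrophages, and Ctsk and Ctsl encode cathepsins K and L, lysosomal cysteine proteases that can also cut matrix. Chil3 encodes a chitinase-like protein that alveolar macrophages make in large amounts.

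Library 1 held 941 members among its 4800 barcodes under the mitochondrial limit, a share of 19.6% (95% exact binomial interval 18.5 to 20.8%). Library 7 held 881 of 3301, or 26.7% (25.2 to 28.2%). Library 2 held 615 of 7626, or 8.07% (7.46 to 8.70%), and library 3 held 122 of 5129, or 2.38% (1.98 to 2.83%). These intervals cover counting error only, and none of the 4 overlapped another. Library 1 depended on the mitochondrial limit, since its share was 8.82% with a limit of 5%, when library 2 held 8.53%. In the order of libraries 1, 7, 2 and 3, members carried 29.6%, 37.5%, 14.7% and 5.12% of the UMIs in barcodes under the mitochondrial limit. Libraries 4, 5 and 6, which the rule leaves out, held 2, 0 and 1 such cells among 2992, 4888 and 4882 barcodes. The 95% exact binomial interval for the count of 0 reached a share of 0.0754%.

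Depth differed between the libraries' members. The libraries held 50552002 (library 1), 79439569 (library 2), 47364075 (library 3) and 34606626 UMIs (library 7). The median member had 13575 UMIs in library 1, 17242 in library 2, 18389 in library 3 and 13570 in library 7, and in library 7 the middle of the distribution ran from 4639 to 21351. The median mitochondrial share was 6.76% in library 1, 4.52% in library 2, 5.15% in library 3 and 4.25% in library 7. The part of depth and of this share in the differences below was not tested. Levels are UMIs summed over the members of a library, per 1000000 of their UMIs (CPM), with 95% exact Poisson intervals that cover counting error only. At a level of 50 CPM that interval ran from 46.3 to 53.9 CPM in library 1 and from 41.3 to 60.1 CPM in library 3. Counts from 3′ ends carry no length term, and levels were compared between libraries or cells within a gene.

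The cells carried macrophage transcripts in all 4 libraries. Lyz2, the lysozyme gene of myeloid cells, stood at 18860 CPM in library 1, 21942 in library 2, 16319 in library 3 and 12591 in library 7, against 1205 CPM in the T cells of library 1 and 255 in those of library 7. Cd68, a lysosomal glycoprotein of macrophages, ranged from 449 to 571 CPM over the 4 libraries and stood at 24.0 and 12.9 CPM in those T cells. T cells, chosen by at least 2 UMIs over Cd3d, Cd3e and Cd3g, should lack these genes, and their levels are given as a background that includes free RNA in the droplets. The 8 T cell and 6 NK cell genes summed to at most 33.5 and 6.01 CPM in the members of any library.

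The defining genes of eosinophils were near 0 in the members. Epx and Prg2, which encode eosinophil granule proteins, and Il5ra, the interleukin 5 receptor chain, were each at 0 in library 1 and at most 0.240 CPM in the others. Ccr3, the eotaxin receptor, reached 0.898 CPM in library 1 and less in the other libraries, below the T cells of library 1 (5.40 CPM) and 7 (3.57 CPM). Of the 11 genes of the eosinophil list, only Rnase2a was above 50 CPM in any library, at 205 CPM in library 1, 3.21 in library 2, 3.92 in library 3 and 119 in library 7. Rnase2a has near-identical copies, among which its reads could be split, so its level is uncertain. Alox15, a 15-lipoxygenase gene of that list, was the highest in library 2, at 21.0 CPM, with 234 of its 236 UMIs in 91 of the 615 cells. The product of Rnase2a belongs to a ribonuclease family that mouse macrophages also express.

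Mmp12 differed widely between the libraries. It stood at 2432 CPM in library 1 (2406 to 2459), 262 in library 2 (253 to 272), 164 in library 3 (148 to 182) and 1716 in library 7 (1693 to 1739). In library 3 the level rested on few cells, since 208 of its 377 Mmp12 UMIs came from 9 cells without a UMI of Gpnmb, and the other 113 members stood at 79.5 CPM. Library 1 was highest, and its Mmp12 level was 9.27 times that of library 2 (95% exact binomial interval of the ratio 8.93 to 9.63). Thinned shares of cells with a UMI were 73.2% in library 1, 16.1% in library 2, 13.9% in library 3 and 36.1% in library 7. In the T cells Mmp12 was at 26.4, 2.24, 1.16 and 4.997 CPM in that order. These shares are of members with every cell thinned to 2000 UMIs and shallower cells left out. Among members of at least 2000 UMIs before thinning, the median cell of library 1 held 1318 CPM of Mmp12 and that of library 7 held 37.7 CPM, while the median was 0 in libraries 2 and 3. Mmp12 was thus spread over most cells of library 1 and concentrated in part of the cells of library 7, whose top decile began at 6695 CPM.

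Gpnmb differed less, at 685 CPM in library 1, 657 in library 2, 381 in library 3 and 848 in library 7. Libraries 1 and 2 were within 1.04 times of each other (1.011 to 1.075). Ctsk ran from 495 CPM in library 3 to 790 CPM in library 7. Chil3 was the most abundant gene of the rule, at 37019 CPM in library 1, 16809 in library 2, 12357 in library 3 and 54646 in library 7. Chil3 UMIs were also found in 22.0% of the thinned T cells of library 1 and 45.0% of those of library 7, so a single Chil3 UMI does not separate a member from free RNA. Reads of Chil3 could also be split with its near-identical copy Chil4.

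Gpnmb carried the rule in most members of libraries 2 and 3. Of the 3 genes summed by the rule, Gpnmb had the most UMIs in 80.7% of members in library 2 and 82.0% in library 3, but in 18.0% in library 1 and 40.0% in library 7. Mmp12 had the most in 69.8% in library 1, 15.1% in library 2, 17.2% in library 3 and 29.5% in library 7. A UMI of Gpnmb without one of the other genes summed was found in 5.21% of members in library 1, 63.4% in library 2, 72.1% in library 3 and 20.9% in library 7. The members of libraries 2 and 3 are therefore better called Gpnmb-led cells, and a name by Mmp12 goes against the data there.

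**Figure D1:**
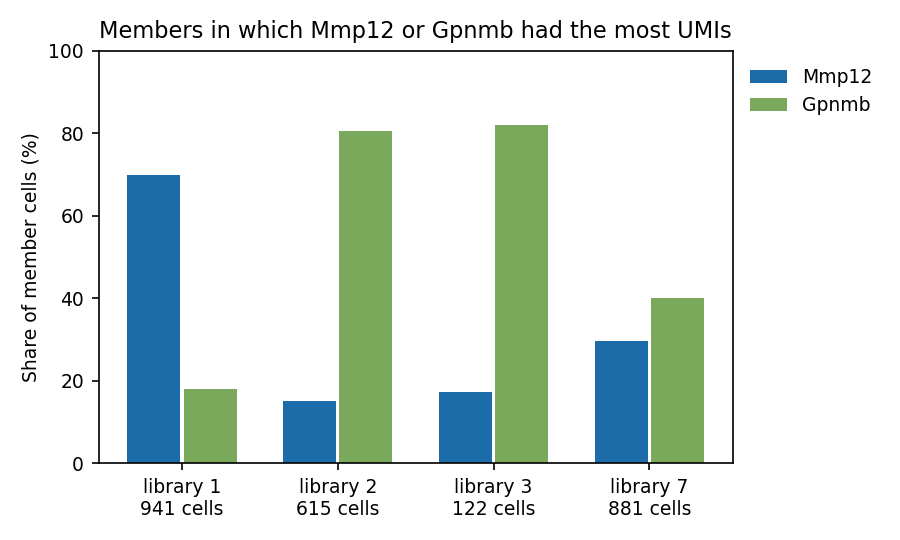
Bars give the share of member cells (%) in each library in which Mmp12 or Gpnmb had the most UMIs of the genes summed by the rule. Mmp12 led in 69.8% of library 1, Gpnmb in 80.7% of library 2 and 82.0% of library 3, and neither led in most cells of library 7.

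The threshold of 5 UMIs lay within a continuous range of cells. The summed count had a median of 26 in library 1, 11 in library 2, 8 in library 3 and 21 in library 7. Just inside the threshold, at 5 UMIs, stood 45, 59, 20 and 66 cells in libraries 1, 2, 3 and 7, and just outside it, at 4 UMIs, stood 62, 96, 33 and 62 cells that met the rest of the rule. Ctsl, which the rule does not use, was at 482 CPM inside and 455 CPM outside in library 1, and at 852 and 613 CPM in library 7. In library 2 it was lower inside, at 400 against 436 CPM, and in library 3 it was at 213 against 218 CPM.

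Mmp12 lies on mouse chromosome 9 (chr9:7344381-7369499, plus strand) and Gpnmb on chromosome 6 (chr6:49036546-49070929, plus strand). Ctsk (chr3:95499256-95509362, plus strand) and Chil3 (chr3:106147554-106167564, minus strand) share chromosome 3, and Ctsl is at chr13:64359337-64370890 on the minus strand. These are positions of whole genes in GENCODE M21 on GRCm38, and the UMIs came from 3′ ends of transcripts.

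Promoters of 4 genes are shown since Mmp12 and Gpnmb chose cells and Retnla and Ccl17 varied with the leading gene. Each sequence runs 5′ to 3′ on the plus strand of GRCm38.p6 from 250 bases before to 50 bases after a RefSeq start, and capitals mark a match to 1 of 3 searched motifs on either strand. The motifs were TTC and GAA parted by any 4 bases, bound by STAT6 and held by 6.95% of 32851 RefSeq promoters of this length, TGANTCA, bound by AP-1 (7.81%), and TCATGTGA, the M-box bound by MITF and TFE factors (0.986%).
Mmp12 (chr9:7347124-7347423, second of its start sites in the table): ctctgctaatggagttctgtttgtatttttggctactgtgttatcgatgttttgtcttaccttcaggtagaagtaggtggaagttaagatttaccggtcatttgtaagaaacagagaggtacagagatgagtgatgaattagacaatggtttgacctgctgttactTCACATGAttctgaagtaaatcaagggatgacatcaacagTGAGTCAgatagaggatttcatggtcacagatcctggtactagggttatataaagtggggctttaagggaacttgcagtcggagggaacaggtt
Gpnmb (chr6:49036268-49036567): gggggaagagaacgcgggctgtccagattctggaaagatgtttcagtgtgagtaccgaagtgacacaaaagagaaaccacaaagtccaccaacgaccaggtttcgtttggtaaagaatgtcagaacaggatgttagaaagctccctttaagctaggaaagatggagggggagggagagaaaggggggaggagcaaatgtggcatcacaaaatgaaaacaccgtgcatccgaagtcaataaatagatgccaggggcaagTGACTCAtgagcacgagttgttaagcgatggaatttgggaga
Retnla (chr16:48842359-48842658): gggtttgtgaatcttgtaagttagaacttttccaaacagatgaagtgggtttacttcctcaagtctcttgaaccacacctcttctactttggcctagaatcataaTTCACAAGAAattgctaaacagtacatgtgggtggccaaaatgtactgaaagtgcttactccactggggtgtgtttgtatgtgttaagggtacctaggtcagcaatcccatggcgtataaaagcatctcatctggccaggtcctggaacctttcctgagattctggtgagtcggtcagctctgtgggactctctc
Ccl17 (chr8:94810203-94810502): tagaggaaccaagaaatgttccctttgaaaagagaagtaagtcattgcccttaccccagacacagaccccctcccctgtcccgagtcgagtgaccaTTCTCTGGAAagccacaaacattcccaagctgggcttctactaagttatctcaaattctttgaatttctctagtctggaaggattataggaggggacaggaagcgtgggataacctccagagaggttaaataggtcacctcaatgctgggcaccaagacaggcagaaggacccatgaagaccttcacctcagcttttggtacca

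Mmp12 held an AP-1 letter match that begins 44 bases before the start and an M-box match that begins 84 bases before it. Gpnmb held an AP-1 match just after its start, and Retnla and Ccl17 each held a STAT6 match, 145 and 154 bases before the start. A match describes these letters only. The other Mmp12 window and those of Ctsk, Chil3, Ctsl and Rnase2a held none of the 3 motifs, and Ccl24 was not matched in the table.

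Cathepsin genes were abundant in the members of all 4 libraries. The 14 genes of the list summed to 21149 CPM in library 1, 19314 in library 2, 11010 in library 3 and 21802 in library 7, against 1431 CPM in the T cells of library 1 and 1365 in those of library 7. Ctsl, the cathepsin L gene, was at 909 CPM in library 1 (893 to 925), 551 in library 2 (537 to 565), 290 in library 3 (268 to 312) and 1693 in library 7 (1670 to 1716). Library 7 was highest, at 1.86 times library 1 (1.82 to 1.91) and 5.85 times library 3 (5.41 to 6.33). Among barcodes under the mitochondrial limit, members supplied 69.4% of the Ctsl UMIs of library 1 and 79.2% of those of library 7. In libraries 2 and 3 they supplied 21.6% and 5.79%. With cells thinned to 2000 UMIs, Ctsl was seen in 65.0% of members in library 1, 55.4% in library 2, 46.7% in library 3 and 71.7% in library 7, and in 1.86%, 7.36%, 3.94% and 5.76% of the T cells.

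Of the other abundant cathepsins, Ctsd and Ctss did not keep this order. Ctsb, cathepsin B, stood at 2706 CPM in library 1, 1574 in library 2, 957 in library 3 and 3279 in library 7, the same order as Ctsl. Ctsd, the aspartic protease cathepsin D, was highest in library 2, at 9104 CPM, against 6025 in library 1, 4665 in library 3 and 7367 in library 7. Ctss, cathepsin S, was highest in library 1, at 6669 CPM, against 4604 in library 2, 2315 in library 3 and 5136 in library 7. Lgmn, the asparaginyl endopeptidase that processes cathepsins, ran from 290 CPM in library 3 to 1227 CPM in library 7. Each of these was at most 469 CPM in the T cells of any of the 4 libraries.

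**Figure D2:**
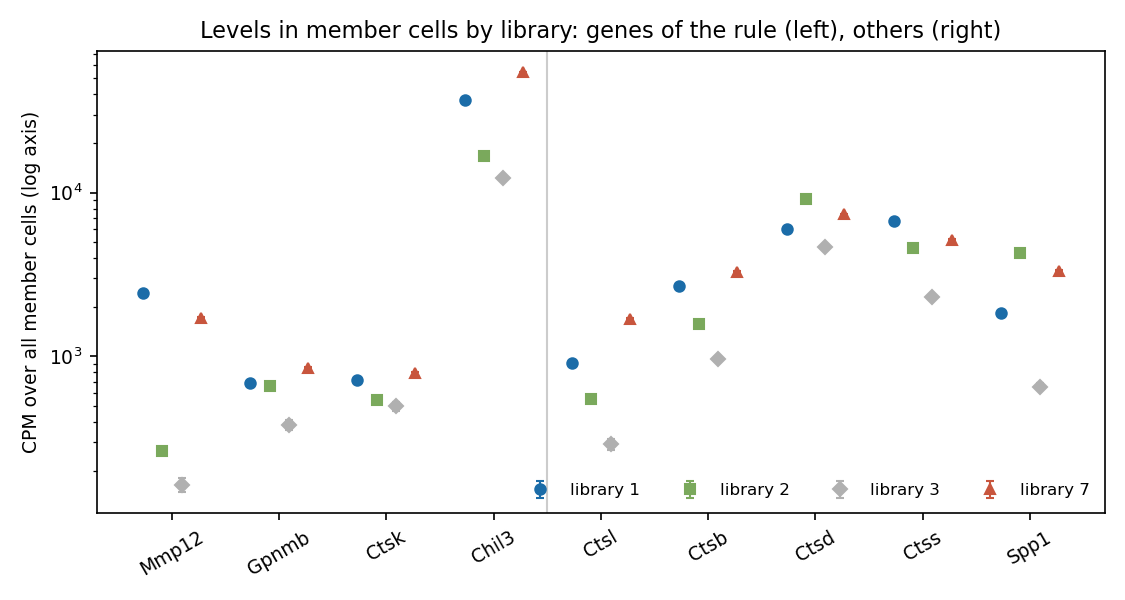
Points give CPM over all member cells (log axis) in each library, and bars are 95% exact Poisson intervals that cover counting error only. Genes left of the line chose the cells. Mmp12 spans from 164 CPM in library 3 to 2432 CPM in library 1, while Ctsl, Ctsb, Ctsd and Ctss differ less. In library 3, 9 cells gave 208 of 377 Mmp12 UMIs.

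The list of 24 metalloproteinase genes does not hold Mmp12. Mmp19 was its highest gene, at 319 CPM in library 1, 338 in library 2, 154 in library 3 and 435 in library 7. Mmp14, a membrane-bound collagenase, was at 138 CPM in library 1, 11.9 in library 2, 3.48 in library 3 and 70.6 in library 7, so that libraries 2 and 3 were at or below the T cells of library 1 (15.9 CPM). Among proteases known from neutrophils, Elane and Ctsg stood at or below 0.435 CPM in every library, and Mmp9 was at most 6.25 CPM. Mmp8, the neutrophil collagenase, was at 45.0 CPM in library 1, 44.5 in library 2, 45.7 in library 3 and 52.9 in library 7, against at most 12.0 CPM in the T cells.

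Protease inhibitors were also present. Cst3 (cystatin C) and Cstb (cystatin B), inhibitors of cathepsins, stood at 1571 and 1204 CPM in library 1 and at 1106 and 1082 CPM in library 7. Timp2, a tissue inhibitor of metalloproteinases, was at 349 CPM in library 1, 177 in library 2, 90.6 in library 3 and 220 in library 7.

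Ccl17, Retnla and Ccl24 of the alternative activation list differed with the leading gene, and were named after their values were seen. Ccl17, a chemokine that recruits CCR4-bearing T cells, was at 995 CPM in the 657 Mmp12-led cells of library 1 and at 50.02 CPM in the 169 Gpnmb-led cells there. In library 7 it was at 1026 CPM in the 260 Mmp12-led and 11.2 CPM in the 352 Gpnmb-led cells. Mmp12-led cells of libraries 2 and 3, 93 and 21 cells, held 370 and 476 CPM, against 3.84 and 2.13 CPM in the Gpnmb-led cells. Ccl17 was thus higher in the Mmp12-led than in the Gpnmb-led cells of each library. In library 3 the value rested on few cells, since 149 Ccl17 UMIs came from 9 cells that held 25823 CPM of Cd74, 490 CPM of Chil3 and no Gpnmb, and 40 came from the other 113 members.

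Retnla, which encodes the secreted protein Fizz1, followed the same division. It stood at 652 CPM in the Mmp12-led and 49.7 CPM in the Gpnmb-led cells of library 1, and at 751 and 5.82 CPM in those of library 7. The T cells held 161 CPM of Retnla in library 1, above the Gpnmb-led cells, and 4.997 CPM in library 7. Ccl24, the eosinophil chemoattractant eotaxin 2, was at 621 CPM in the Mmp12-led and 39.6 CPM in the Gpnmb-led cells of library 7. In library 1 Ccl24 was at 93.7 and 9.40 CPM in that order. Ccl24 also went with the depth of the cell in library 7, as given below, and the part of depth here was not tested.

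Spp1 (osteopontin), a secreted matrix protein, was higher in Gpnmb-led cells, at 3443 CPM against 958 CPM in Mmp12-led cells of library 1, at 4021 against 3182 CPM in library 2 and at 2364 against 1810 CPM in library 7. Fn1 (fibronectin) went the other way, at 1375 against 1929, 797 against 1651 and 808 against 1645 CPM in the same order. In library 3 the 9 cells with Mmp12 and no Gpnmb were low in both genes. They held 64.1 CPM of Spp1 and 58.3 CPM of Fn1, against 702 and 603 CPM in the other 113 members. Ctsl went with a different class in each of libraries 1 and 7. It was at 1234 CPM in the Gpnmb-led and 747 CPM in the Mmp12-led cells of library 1, but at 599 and 3615 CPM in those of library 7. Ctsl too went with depth in library 7, as given below, and the part of depth here was not tested.

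The members of libraries 1 and 7 were a mixture of macrophage profiles. An alveolar rule, at least 3 UMIs over Marco, Krt79, Fabp1, Siglecf and Plet1, was met by 432 members of library 1 (45.9%), 524 of library 2 (85.2%), 113 of library 3 (92.6%) and 385 of library 7 (43.7%). Dividing the members by it was decided after the data were seen. Car4, a carbonic anhydrase of alveolar macrophages that this rule does not use, was at 1063 CPM in the members of library 1 that met it and 10.03 CPM in the 509 that did not, and at 362 and 23.4 CPM in library 7. Lpl, lipoprotein lipase, was likewise at 2831 and 631 CPM in library 1 and at 2824 and 772 CPM in library 7.

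Members outside the alveolar rule carried more of the genes of interstitial macrophages. C1qa, a chain of complement C1q, was at 1475 CPM in those of library 1 and 75.2 CPM in those that met the rule, and at 421 and 17.5 CPM in library 7. Apoe, the lipid carrier apolipoprotein E, was at 5916 and 334 CPM in library 1 and at 2334 and 306 CPM in library 7. H2-Aa, an antigen-presenting chain of MHC class II, was at 4905 and 2378 CPM in library 1 and at 1527 and 420 CPM in library 7. All 3 genes were thus higher outside the rule in both libraries.

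Mmp12 was similar on both sides of the alveolar rule in library 1, at 2169 CPM outside and 2738 CPM inside, but not in library 7, at 3661 and 606 CPM. Inside it Mmp12 was at 172 CPM in library 2 and 79.5 CPM in library 3. Ctsl was at 1157 and 621 CPM in library 1 and at 3544 and 637 CPM in library 7, so that the cells inside the rule had like levels in both libraries and those outside it did not. In library 7 the 496 cells outside the rule had a median of 5667 UMIs and the 385 inside it 19666, while in library 1 the medians were 13633 and 13555. The part of this depth gap in the Ctsl level of library 7 was not tested.

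**Figure D3:**
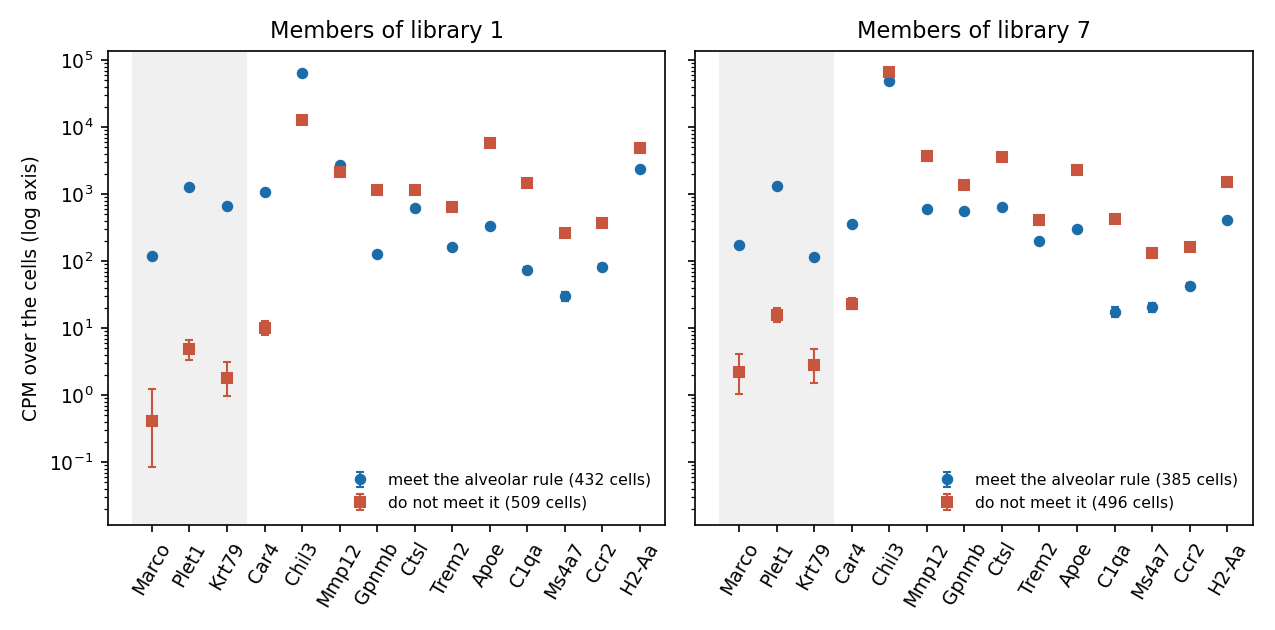
Points give CPM (log axis) over the member cells of libraries 1 and 7 that meet or do not meet the alveolar rule, with 95% exact Poisson intervals. Shaded genes belong to the rule. Apoe and C1qa are higher outside the rule in both libraries, and Mmp12 in library 7 only.

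In libraries 2 and 3 the cells outside the rule were few, 91 and 9. The 9 of library 3 held 22272 CPM of Sftpc and 25823 CPM of Cd74, so that epithelial RNA was part of their counts. They supplied 3820 of the 3930 Sftpc UMIs of that library's members. Over all members, the 10 epithelial genes summed to 306 CPM in library 1, 3738 in library 2, 2582 in library 3 and 468 in library 7, and the most abundant was Scgb1a1 (club cell secretory protein) in libraries 1, 2 and 7 and Sftpc in library 3. None of these 10 genes was at 0 in any library. Their part in the differences between libraries was not tested.

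Cathepsin levels also went with the depth of the cell in library 7. Ctsl was at 17628 CPM in its 107 members under 2000 UMIs, 8846 CPM in the 123 from 2000 to 5000, 2296 CPM in the 258 from 5000 to 15000 and 1005 CPM in the 393 above. Ctsb followed, at 12356, 10161, 4587 and 2496 CPM, whereas Ctss stayed between 4298 and 5373 CPM and Ctsd was highest in the deepest cells, at 8049 CPM. Ctsl and Ctsb levels were thus highest in the shallow cells, and those of Ctss and Ctsd were not. In library 1 the same classes of 58, 89, 389 and 405 cells held 2463, 2154, 689 and 953 CPM of Ctsl. Members over 15000 UMIs thus held like Ctsl levels in both libraries.

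Ccl24 in library 7 was likewise at 1811, 3003, 793 and 177 CPM from the shallowest to the deepest class. The rule asks for 5 UMIs at any depth, so shallow members have high shares of Mmp12 or Gpnmb by construction. It does not use Ctsl, Ctsb or Ccl24, but Ctsl and Ccl24 were higher in the Mmp12-led than in the Gpnmb-led cells of library 7. The part of the selection in these slopes was not tested. The median mitochondrial share of the library 7 classes was 2.90%, 3.75%, 4.68% and 4.499%. Libraries 2 and 3 held 1 and 0 members under 2000 UMIs.

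**Figure D4:**
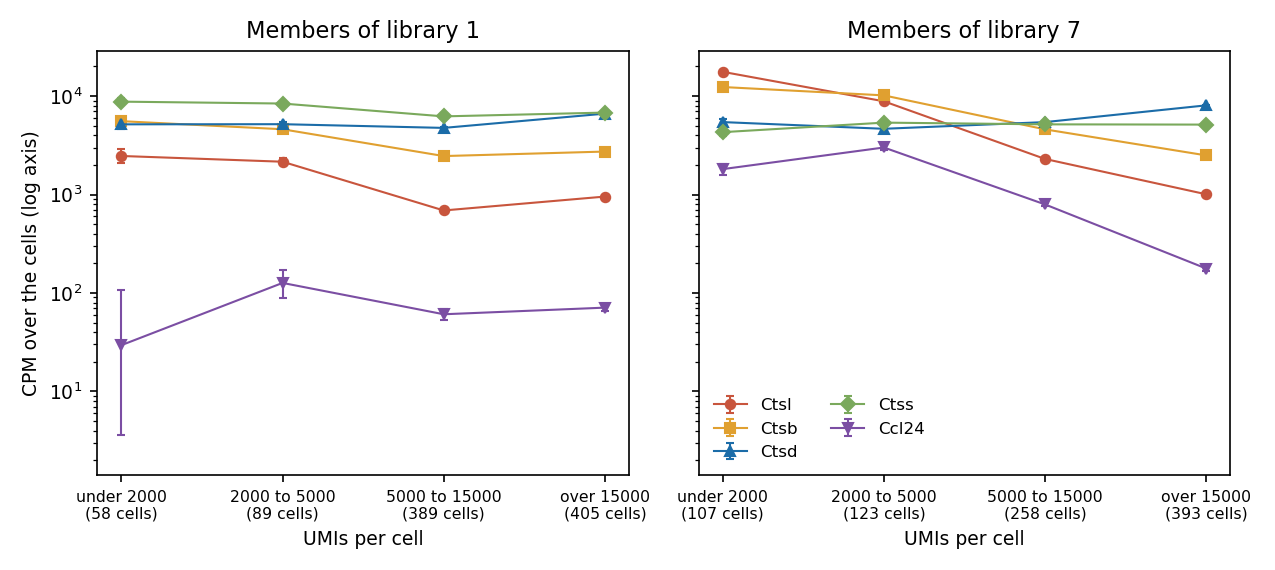
Points give CPM (log axis) of 4 cathepsin genes and Ccl24 by the number of UMIs per member cell in libraries 1 and 7, with 95% exact Poisson intervals. In library 7 Ctsl is at 17628 CPM in the shallowest and 1005 CPM in the deepest cells, and Ctss shows no such slope.

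The members of library 7 were then set beside those of library 1 over all genes of at least 50 CPM in either. Of 3283 genes, 65 (1.98%) were at least 2-fold higher in library 7 and 56 (1.71%) at least 2-fold lower. The median gene was 0.14 higher on the log2 scale in library 7. With the libraries scaled to that median, 47 genes were higher and 78 lower, so that the share of higher genes among those past the fold went from 53.7% to 37.6%. These counts describe 2 libraries and have no replicate check.

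Genes of antigen presentation were lower in library 7. Of the 11 MHC class II genes, 7 had 50 CPM and all 7 were past the fold under either scaling. Without the scaling 1.71% of all genes were lower. The median log2 ratio of the 7 was -2.11 beside 0.14 over all genes. H2-Aa was at 3735 CPM in library 1 and 822 in library 7, and Cd74, the invariant chain, was at 8294 and 1796 CPM. Libraries 2 and 3 held 617 and 1101 CPM of H2-Aa and 1566 and 2950 CPM of Cd74. In library 3, 9 cells outside the alveolar rule supplied 1621 of 2528 H2-Aa and 4429 of 6774 Cd74 UMIs, and the other 113 members held 427 and 1104 CPM. Members inside the rule held 258 CPM of H2-Aa in library 2, 2378 in library 1 and 420 in library 7. Library 1 was therefore the highest in H2-Aa with or without the cells outside the rule.

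Other cell groups of the 4 libraries did not share 1 order in these genes. In non-member cells that met the alveolar rule, the 11 MHC class II genes summed to 18208 CPM in library 1, 6135 in library 2, 2934 in library 3 and 7012 in library 7. In monocytes, chosen by Ly6c2, Ccr2 and Lyz2, library 1 was lowest, at 4556 CPM against 11058, 10143 and 8784, and in C1q macrophages, chosen by complement genes, it was at 49813 CPM against 51186, 42048 and 31709. The T cells held 3177 CPM in library 1, 3691 in library 2, 999 in library 3 and 1066 in library 7. Library 1 was thus highest in the alveolar cells but not in the monocytes, C1q macrophages or T cells.

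Interstitial macrophage genes were lower too, 8 of the 11 measured under either scaling. Over all 3283 genes 56 were lower, and 78 with the scaling. C1qa stood at 827 CPM in library 1, 164 in library 2, 128 in library 3 and 164 in library 7, and C1qb at 841, 174, 150 and 143 CPM. Most of these UMIs came from few cells in libraries 2 and 3. The 9 cells of library 3 outside the alveolar rule supplied 249 of 293 C1qa and 295 of 344 C1qb UMIs, and the other 113 members held 20.7 and 23.1 CPM. In library 2 the 91 cells outside the rule supplied 1518 of 1844 C1qa and 1585 of 1954 C1qb UMIs, and the other 524 held 33.0 and 37.3 CPM. Pf4, a platelet-type chemokine of tissue macrophages, was at 222, 35.7, 8.27 and 27.3 CPM, and Ccl8, a monocyte-attracting chemokine, was at 141, 1.87, 0 and 29.97 CPM. In library 7 Pf4 and Ccl8 were near their levels in the T cells, 39.3 and 27.8 CPM. Csf1r, the receptor of macrophage colony-stimulating factor, at 234 CPM in library 1 and 157 CPM in library 7, was not past the fold.

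Chemokine genes went both ways, beside 1.98% higher and 1.71% lower over all genes. Of 10 measured, Ccl2 (58.5 CPM in library 1 and 142 in library 7) and Ccl7 (14.4 and 124 CPM), both ligands of CCR2, were higher in library 7. Cxcl9 (104 and 6.97 CPM), an interferon-induced T cell attractant, Ccl5, Cxcl3 and Cxcl16 were lower, and 1 more was lower with the scaling. A single cell supplied 65.5% of the Cxcl9 UMIs of library 7. Ccl5 was higher in the T cells (1603 and 4603 CPM) than in the members (87.2 and 16.1 CPM), and the part of T cell RNA in it was not tested. H2-M2, an MHC class I-like gene (265 and 24.3 CPM), Gbp2, an interferon-induced GTPase (126 and 25.7 CPM), and Plxdc2 (61.2 and 12.2 CPM) completed the 10 largest ratios in that direction, with C1qa, C1qb, Pf4, Ccl8, Cxcl9, Cxcl3 and Ccl5.

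The largest ratio of a gene well above the T cells was that of Rbp4, the retinol carrier, at 1.20 CPM in library 1, 0.624 in library 2, 0 in library 3 and 73.5 in library 7, where 58 of the 881 members held a UMI of it. Fstl1, a secreted glycoprotein, stood at 8.31, 46.2, 1.74 and 71.6 CPM, and Plpp3, a lipid phosphatase, at 21.4, 115, 19.6 and 141 CPM. Ccl24 was at 69.0, 9.36, 0 and 413 CPM and was 5.99 times higher in library 7 than in library 1 (5.58 to 6.43). Rbp4 was thus high in library 7 alone, and Ccl24 was highest there. Fstl1 and Plpp3 were also higher in library 2 than in library 1. Gstm1, a glutathione transferase, and Atf5, a stress-related transcription factor, were 4.68 and 4.40 times higher in library 7 than in library 1, and Gstm1 was higher still in library 2, at 880 CPM against 569.

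S100a9 and S100a8, the calgranulins of neutrophils, were also among the highest ratios, S100a9 at 1.496 CPM in library 1 and 101 in library 7. Both were below the T cells of their own libraries (261 and 293 CPM for S100a9), and a single cell supplied 30.1% of the S100a9 UMIs of library 7. The 12 neutrophil genes summed to 104, 573, 358 and 375 CPM in libraries 1, 2, 3 and 7, with S100a8 or S100a9 the most abundant except in library 1, where it was Mmp8. Igkc, an immunoglobulin chain, at 16.8 and 67.8 CPM, was likewise below the T cells, at 2317 and 443 CPM. In the alveolar comparator of the same libraries S100a9 was at 1.38 and 135 CPM and Igkc at 13.5 and 38.7 CPM. Both were thus higher in library 7 there too, though Igkc in library 7 was below the members. The part of free RNA in these 3 genes was not tested.

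Lysosomal and protease genes past the fold are counted next, beside 1.98% higher and 1.71% lower over all genes. Of 9 cathepsin genes measured none was past 2-fold, with Ctsl nearest, and of 42 genes of lysosomes and the vacuolar proton pump 1 was higher, Atp6v0a1 (83.5 and 193 CPM), a share near that of all genes. With a mitochondrial limit of 5% these counts were 1 and 3, and 1 cathepsin gene was also higher with a sum of at least 10 UMIs and with a mean over cells. None of the 8 metalloproteinase genes of the list was past the fold, and 1 was lower with the scaling. Of 11 protease inhibitors, 2 were higher, among them Timp1 (27.5 and 85.2 CPM), and none was lower.

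Further lists are given beside 3.69% of all genes past the fold in either direction. Of 9 cytokine and growth factor genes 1 was higher, as was 1 of 12 iron and redox genes. Of 28 transcription factors and 10 scavenger receptors, 1 each was higher. None of these was lower, and none of 10 receptors for myeloid factors or 10 glycolysis genes was past the fold. With the scaling no scavenger receptor was higher, and 1 cytokine and 1 glycolysis gene were lower. Of 12 genes of alternative activation, Ccl24 and Tgm2 (transglutaminase 2) were higher and Ccl17 was lower, at 676 and 238 CPM, and with the scaling 1 was higher and 2 lower. Of 24 lipid-handling genes, Apoe (3332 and 1043 CPM) and Pla2g7 (143 and 60.7 CPM) were lower. Gdf15, a stress-induced cytokine, was at 60.8 CPM in library 1, 218 in library 2, 73.6 in library 3 and 241 in library 7, and Hmox1, the heme oxygenase gene, was at 165 CPM in library 1, 511 in library 2, 99.3 in library 3 and 373 in library 7. Hmox1 and Gdf15 were thus high in library 2 as well. Of 17 resident alveolar genes Marco, a scavenger receptor, was higher in library 7 (55.3 and 112 CPM), and Siglecf, Krt79 and Car4 were lower. With the scaling none was higher and 4 were lower, so the call of Marco was lost.

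**Figure D5:**
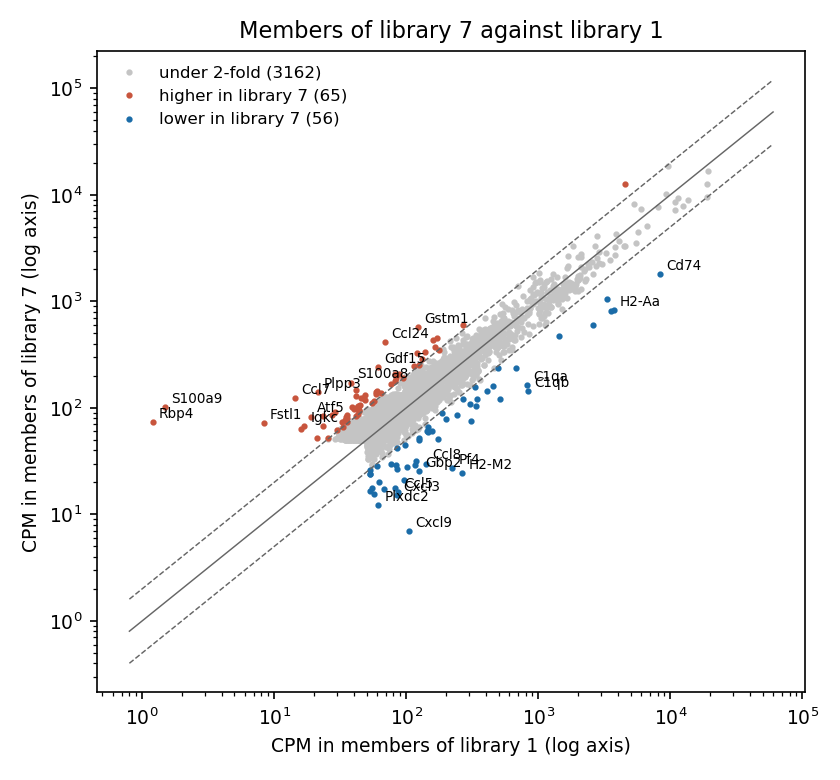
Each point is a gene of at least 50 CPM in the members of library 1 or 7, with CPM in library 1 on the horizontal and in library 7 on the vertical log axis. The solid line marks equal levels and the dashed lines a 2-fold difference, and MHC class II and C1q genes lie below them.

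Library 7 was nearest to library 2 by the number of genes past 2-fold in either direction. Between the members of libraries 7 and 2, 88 of 3364 genes (2.62%) were apart, between 7 and 1 it was 121 of 3283 (3.69%), between 2 and 3 it was 155 of 3502 (4.43%), and between 1 and 2 it was 209 of 3298 (6.34%). Between 7 and 3 it was 371 of 3636 (10.2%), and between 1 and 3 it was 472 of 3548 (13.3%). Library 3 holds the fewest cells. The median log2 ratio of all genes was -0.15 for library 1 over 2, -0.25 for 1 over 3, -0.03 for 7 over 2, -0.13 for 7 over 3 and -0.10 for 2 over 3. These pairs share libraries and were counted after the data were seen.

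Libraries 1 and 7 were both past 2-fold over library 3 in 4 of 9 cathepsin genes. Over library 2, library 7 was past it in 3 of 9 and library 1 in 0 of 9. Of the MHC class II genes, library 1 was higher than library 2 in 7 of 7 and than library 3 in 6 of 7, while library 7 was past the fold from library 2 in 0 of 6 and from library 3 in 0 of 6. With library 3 reduced to its 113 members inside the alveolar rule, library 7 was higher in 1 of 6, and the other counts over library 3 in this paragraph did not change. Of alternative activation genes, library 1 was higher than library 2 in 4 of 12 and library 7 in 4 of 12. No gene of that list was past the fold in the other direction in those pairs.

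To place the members among other lung macrophages, they were set beside cells of the same library chosen by other genes, and a gene was counted when it was past 4-fold in the same direction in libraries 1 and 7. The first comparator, 257 cells of library 1 and 247 of library 7 that met the alveolar rule and were not members, held 25134 and 7719 CPM of Scgb1a1, so airway epithelial RNA was among its counts. Of 3083 genes, 13 (0.422%) were higher in members and 42 (1.36%) lower, the latter led by epithelial genes such as Sec14l3 and Ccdc153. This balance turned with a mitochondrial limit of 5% (16 higher and 7 lower) and with a mean over cells (16 and 12). A stricter comparator, chosen after this was seen, asked for at least 2 UMIs over Marco, Krt79, Fabp1 and Siglecf, without Plet1, at least 1 of Chil3, and at most 0.2% of UMIs over 4 epithelial genes. It held 180 cells of library 1 and 110 of library 7, of which 5 and 8 were not in the first. Against it, 19 of 3034 genes (0.626%) were higher in members and none (0.0%) lower.

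Of 9 complement genes measured, 5 were higher in members than in this stricter comparator, and of 12 alternative activation genes 3 were, Retnla, Mgl2 and Ccl24. Against the first comparator 1 of 13 alternative activation genes was past the fold, Ccl24. Of 27 lipid-handling genes Apoe was the 1 past 4-fold, and of 6 chemokine genes 1 was past it. Apoe was at 3332 CPM in members and 101 CPM in the stricter comparator of library 1, and at 1043 and 46.8 CPM in library 7. Retnla was at 518 and 29.7 CPM in library 1 and at 281 and 10.9 CPM in library 7. The first comparator of library 1 held 2459 CPM of Retnla, more than the members, and that of library 7 held 8.46 CPM. C3ar1, the receptor of complement C3a, was at 91.4 and 6.22 CPM and at 75.5 and 3.998 CPM. Mgl2, a lectin of alternatively activated macrophages, was at 182 and 13.9 CPM and at 126 and 9.14 CPM, with 111 and 79.0 CPM in the first comparator of libraries 1 and 7. Ccl24 was at 69.0 against 0.957 CPM in library 1 and at 413 against 3.998 CPM in library 7, a ratio of 103 with a counting interval from 50.1 to 257.

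Members inside the alveolar rule did not share all of this. In library 1 they held 75.2 CPM of C1qa and 86.8 of C1qb, against 88.1 and 75.6 CPM in the stricter comparator, and in library 7 they held 17.5 and 19.6 CPM, against 37.7 and 6.28 CPM. Apoe, at 334 CPM in library 1 and 306 CPM in library 7, was above the stricter comparator inside the rule as well. Of 8 interstitial macrophage genes measured 6 were higher in members, and no gene of this list or of the complement list was lower. The 9 cathepsin genes had a median log2 ratio of 0.66 beside -0.10 over all genes, and none was past 4-fold. Genes nearest to the fold in the other direction were Cidec, a lipid droplet protein (41.9 against 144 CPM in library 1 and 31.3 against 111 CPM in library 7), and Ear1, a ribonuclease whose reads could be split with its copies (220 against 661 and 115 against 346 CPM). Krt19, Fpr1 and Alox5, the 5-lipoxygenase gene of leukotriene synthesis, were also lower without passing it.

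C1q macrophages, with at least 5 UMIs over C1qa, C1qb and C1qc and at least 1 UMI over 2 further markers, among them Ms4a7, and outside the alveolar rule, gave 230 cells in library 1 and 58 in library 7. Of 3087 genes, 53 (1.72%) were higher in members and 52 (1.68%) lower. Members were higher in Wfdc21, Ly75, Mgll (monoacylglycerol lipase) and Car4, with Car4 at 497 against 1.14 CPM in library 1 and 239 against 3.40 CPM in library 7. Atp6v0d2, a proton pump subunit of alveolar macrophages and osteoclasts, was at 658 against 27.6 CPM and at 987 against 13.6 CPM. Of 12 resident alveolar genes that are not in the alveolar rule, 8 were higher and none lower. The C1q cells were chosen to lie outside that rule, which 45.9% of members of library 1 and 43.7% of library 7 met. The direction of genes that go with the rule's genes, such as Car4, was thus partly set by this choice.

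Members were lower than C1q macrophages in genes of tissue-resident interstitial cells. Folr2, a folate receptor, was at 2.02 against 90.1 CPM in library 1 and 2.81 against 146 CPM in library 7, and Gas6, a ligand of the receptor Mertk, at 3.74 against 98.4 and 4.89 against 239 CPM. Ccl12 (9.88 against 281 and 6.01 against 428 CPM) and Ccl8 (141 against 2817 and 29.97 against 679 CPM) were chemokines of the same direction. Of 13 interstitial genes measured, 9 were lower and none higher, while Ctsl and Ctsd were the cathepsins past 4-fold in the members' favour. Since other interstitial genes chose the C1q cells, the direction of the interstitial genes was partly set by that choice. The C1q cells of library 7 held 39290 CPM of epithelial genes in sum, and the part of this RNA in the ratios was not tested.

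Against monocytes, 368 cells of library 1 and 45 of library 7 with at least 1 UMI each of Ly6c2, Ccr2 and Lyz2, 131 of 3367 genes (3.89%) were higher in members and 107 (3.18%) lower. Lipid-handling genes were higher in 12 of 23, among them Lpl, Fabp5, Cd9, Cd36 and Abcg1, with none lower. Slc7a2, a carrier of cationic amino acids, was at 510 against 2.36 CPM in library 1 and 757 against 5.90 CPM in library 7, and Cd63, a lysosomal tetraspanin, was at 1152 against 4.72 CPM and 1055 against 9.83 CPM. Ctsl, Ctsd and Lgmn were past 4-fold, as were the osteoclast-associated genes Acp5, Tfec and Spp1.

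Genes of circulating monocytes were low in members. Plac8 was at 33.4 against 4153 CPM in library 1 and 24.6 against 3204 CPM in library 7, and Vcan (versican) at 2.09 against 68.2 and 3.53 against 159 CPM. Of 12 monocyte genes measured 9 were lower and none was higher. Since other monocyte genes chose the comparator, this direction was partly set by that choice. Interferon-stimulated genes Irf7, Oasl2, Ifitm3 and Zbp1 were lower in members as well, with Ifitm3 at 90.2 against 4614 CPM and 64.2 against 3448 CPM. Ccr2, which chose these monocytes, was still at 241 CPM in the members of library 1 and 85.3 CPM in those of library 7.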

How the data were processed

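The authors deposited 1 matrix of raw UMI counts, whole numbers per gene (31053) and barcode (37344), made with Cell Ranger 3.1.0 by the matrix header. The submitters' processing notes name STAR and the mm10 build, and the study's methods state that reads were down-sampled to bring libraries to a like depth. The matrix was used as 1 pooled table, since its 7 barcode numbers are tied to no sample. No group comparison, test or SD was therefore possible. Whether any libraries are replicates is not known, so no spread between mice is given.

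Members were chosen by the rule given above. The third gene it sums, and some members of the lists, are not reported here. The members and the 35 gene lists were chosen with earlier results of these data known. Counts were summed over cells and scaled to 1000000 (CPM). Genes under 50 CPM in both groups were left out, and a group without a UMI was set to a floor of 3 counts for a ratio. Intervals are 95% exact Poisson (levels), binomial (shares) or conditional binomial (ratios). Named genes were the rule genes, the highest of each list and those past the fold, and the 10 largest ratios each way in each comparison, without mt-, Rpl and Rps genes and genes that chose either group. Doublets were marked with Scrublet and kept. It marked 2.53%, 5.10%, 1.84% and 1.07% of barcodes in libraries 1, 2, 3 and 7, and 7, 15, 0 and 6 members. Library pairs shared 2 to 17 barcode sequences, 1 of them in members. The alternatives were other thresholds, scaling, floors and folds, thinning to 2000 UMIs, removal of doublets and each library left out. Functions were tested on simulated data. The work used Python 3.11.15, numpy 2.4.6, scipy 1.17.1, pandas 2.3.3, scanpy 1.11.5 and matplotlib 3.10.9.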

Additional observations from a re-analysis of the deposited data

How the results depend on the processing

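The order of the 4 shares of members did not change under any alternative tried, but their size did. The 2559 members became 1182 with a mitochondrial limit of 5%, 861 with cells thinned to 2000 UMIs, and 1618 to 2437 with 1 library left out. Against 19.6% in library 1, 8.07% in library 2, 2.38% in library 3 and 26.7% in library 7, a sum of at least 3 UMIs gave 22.2%, 10.6%, 4.02% and 30.5%, and a sum of at least 10 gave 16.0%, 4.54%, 0.799% and 20.5%. Thinning gave 10.04%, 0.918%, 0.107% and 13.3%. The limit of 5% gave 8.82% in library 1 and 1.85% in library 3. Keeping barcodes within 2 SD of the mean gave 18.5% in library 1, 7.29% in library 2 and 24.4% in library 7, and allowing 1 UMI of the excluded genes gave 9.56% in library 2.

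Genes past the fold between libraries 7 and 1 went from 121 to 245 with the limit of 5%, 201 and 39 with floors of 20 and 200 CPM, and 29 at 4-fold. Against the alveolar comparator, 55 became 23 with the limit of 5%, 36 with a sum of at least 10, 28 with a mean over cells, 211 and 8 with the 2 floors, 128 at 2-fold and 19 with the stricter comparator. Against C1q macrophages, 105 became 171 and 40 with the floors and 362 at 2-fold, and against monocytes 238 became 396 and 78 with the floors and 703 at 2-fold. The cause of these shifts was not tested. The balance of higher and lower genes turned in some settings. Between libraries 7 and 1, 65 higher and 56 lower became 63 and 65 with a sum of at least 3 UMIs, 47 and 78 with the scaling, 16 and 23 with a floor of 200 CPM and 10 and 19 at 4-fold. Against the alveolar comparator, 13 and 42 became 16 and 7 with the limit of 5%, 16 and 12 with a mean over cells and 19 and 0 with the stricter comparator. Against C1q macrophages, 53 and 52 became 51 and 53 with the scaling, 46 and 53 with a sum of at least 10, 45 and 54 with a mean over cells and 161 and 201 at 2-fold, and against monocytes 131 and 107 became 323 and 380 at 2-fold. No paired analysis was possible because no library carries a replicate number or a group. With 1 unlabelled library per value, the spread between mice is unknown, and in library 3 levels rest on 122 cells.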
